A study of Mus musculus with 4 samples.

Results

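LP-like cells are the mouse mammary epithelial cells that carried transcripts of luminal progenitor (LP) genes, and 1661 of the 10596 profiled cells (15.7%) met the definition. A cell was called LP-like when at least 3 of 5 LP markers (Cd14, Lalba, Plb1, Atp6v1b1 and Aldh1a3) had at least 1 count, with at most 1 of 6 mature luminal (ML) markers (Stc2, Upk3a, Plac8, Tspan1, Prlr and Cited1) and at most 2 of 7 basal markers (Krt5, Krt17, Acta2, Myl9, Tagln, Mylk and Cnn1). The 3409 ML-like cells (at least 3 ML markers, at most 1 LP and 2 basal markers) and the 3563 basal-like cells (at least 4 basal markers) served for comparison. Because the members were chosen by the counts of these 18 genes, those genes are described here without a test, and tests were run only on genes that played no part in the definition.

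The cells came from untreated female FVB/NJ mice, from pubertal glands (5 weeks of age) and from adult glands (10 weeks of age) collected at estrus or at diestrus. Total epithelium (negative for the blood and endothelial antigens and positive for CD24) was sorted by flow cytometry and profiled with the 10X Chromium 3' single-cell system, in which each captured molecule of RNA is counted by a molecular tag. No mutation or transgene was involved, and glands of more than 1 mouse were pooled for each adult stage, so the animals within a library cannot be told apart. With 1 library per stage there was no replicate of a stage, and differences between stages are given without a test.

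Luminal progenitors line the ducts of the mammary gland beside mature luminal cells in the inner layer, with contractile basal (myoepithelial) cells outside. They are known as the hormone receptor-negative luminal cells, marked by the receptor tyrosine kinase Kit and the transcription factor Elf5, from which the milk-producing alveolar cells of pregnancy arise. Prolactin acts on this lineage through its receptor and the transcription factor Stat5, which binds the sequence TTCNNNGAA. Mature luminal cells carry the estrogen receptor (Esr1), the progesterone receptor (Pgr) and the pioneer factor Foxa1.

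The libraries held 5428, 2729 and 2439 cells at puberty, estrus and diestrus, with median depths of 4103, 3236 and 3974 counts per cell. A second pubertal table shared 5387 of its cell barcodes with the first, so the pubertal tables were counted as 1 sample and the first, which was deeper, was used. Any other pair of libraries shared 13 to 24 barcodes. At puberty 1055 cells were LP-like (19.4% of the library, exact binomial 95% interval 18.4 to 20.5%), at estrus 323 (11.8%, 10.6 to 13.1%) and at diestrus 283 (11.6%, 10.4 to 12.9%). These intervals cover counting error only, and the pubertal share changed from 19.4% to 16.5% when the second pubertal table was used and to 14.0% when every cell was thinned to 2000 counts. LP-like cells had median depths of 4147, 3664 and 4414 counts, against 4772, 4207 and 4458 counts in ML-like cells and 3067, 2585 and 3463.5 counts in basal-like cells.

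The promoters of 4 of the genes with the largest differences are shown first, because the results below turn on the caseins and on Lao1. The 4 main casein genes lie together on chromosome 5 (GRCm38, GENCODE M21): Csn1s1 at 87666208 to 87682578 on the plus strand, Csn2 at 87692624 to 87699630 on the minus strand, Csn1s2a at 87774567 to 87788797 on the plus strand and Csn3 at 87925579 to 87932665 on the plus strand. Lao1, which encodes an L-amino acid oxidase secreted into milk, lies on chromosome 4 at 118961578 to 118968912 on the plus strand. The 250 bases before the RefSeq start of each gene (GRCm38.p6) are given 5′ to 3′ on the gene's own strand, with matches to TTCNNNGAA in capitals.
Csn1s1, chr5:87665958-87666207, plus strand: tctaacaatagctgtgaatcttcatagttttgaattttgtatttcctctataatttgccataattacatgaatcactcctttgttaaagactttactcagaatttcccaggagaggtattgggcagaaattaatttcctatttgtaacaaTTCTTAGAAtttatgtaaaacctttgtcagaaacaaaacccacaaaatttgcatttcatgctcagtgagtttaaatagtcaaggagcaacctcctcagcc
Csn2, chr5:87699426-87699675, minus strand: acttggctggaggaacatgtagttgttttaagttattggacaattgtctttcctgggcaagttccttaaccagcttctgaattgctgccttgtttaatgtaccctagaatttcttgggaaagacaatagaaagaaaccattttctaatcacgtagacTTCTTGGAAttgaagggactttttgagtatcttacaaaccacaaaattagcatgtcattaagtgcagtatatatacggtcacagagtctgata
Csn1s2a, chr5:87774200-87774449, plus strand: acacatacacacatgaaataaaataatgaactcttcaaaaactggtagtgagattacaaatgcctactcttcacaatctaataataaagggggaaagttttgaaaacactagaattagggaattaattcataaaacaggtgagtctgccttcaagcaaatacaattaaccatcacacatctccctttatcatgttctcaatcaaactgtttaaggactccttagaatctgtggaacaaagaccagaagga
Lao1, chr4:118961717-118961966, plus strand: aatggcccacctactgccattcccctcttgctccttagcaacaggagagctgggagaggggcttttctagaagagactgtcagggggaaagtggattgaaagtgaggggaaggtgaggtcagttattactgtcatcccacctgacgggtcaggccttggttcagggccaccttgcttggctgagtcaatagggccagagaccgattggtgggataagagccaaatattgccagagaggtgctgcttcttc
Csn1s2a and Lao1 were taken by the naming rule, and Csn1s1 and Csn2 were added after their values were seen. The Csn1s1 window held TTCTTAGAA beginning 100 bases before the start, and the Csn2 window held TTCTTGGAA beginning 93 bases before the start. The windows of Csn1s2a and Lao1 held no match. RefSeq and GENCODE place the start differently for Csn2, Csn1s2a and Lao1. Most of the Csn2 window, its match included, and all of the Lao1 window lie inside the GENCODE gene spans given above. The motif, which reads the same on both strands, was in 2306 of 32851 promoters of this length (7.02%), in 3 of 19 promoters (15.8%) of the 14 matched genes among the 15 genes described next, and in 4 of 15 promoters (26.7%) of the 14 matched genes of the 19-gene milk list. A second motif, AGGAAG on either strand, the core bound by ETS factors such as Elf5, was in 9686 of all promoters (29.5%), in 9 of the same 19 promoters (47.4%) and in 7 of the same 15 (46.7%), and in none of the 4 windows shown. The motifs shared bases in 137 promoters. A match is a description of letters and was not tested for binding.

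The label was checked with genes the definition did not use. For the comparisons between classes, counts were summed per class and library (9 sums) and fitted together with the library as a block, using edgeR's quasi-likelihood test with Benjamini-Hochberg adjustment over 11288 genes. Values are counts per 1000000 (CPM) after trimmed-mean (TMM) scaling over the 9 sums, in the order puberty, estrus and diestrus, and fold changes are log2 with their standard errors. Among all genes tested, 20.4% were higher and 18.3% lower in LP-like than in ML-like cells, and 20.5% were higher and 22.2% lower than in basal-like cells. Genes higher than in both classes made up 9.28% of all genes tested, and genes lower than in both made up 6.95%. Both comparisons share the same LP-like sums. The higher calls were 52.7% of all calls against ML-like cells and 48.0% against basal-like cells, but 35.9% and 32.2% when library totals were used without TMM factors, which moved the median over all genes from 0.02 to −0.20 and from −0.04 to −0.26.

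Of 10 LP-defining genes, 9 passed the filter on low counts and all 9 were higher than in both other classes. The filter removed Itga2. Elf5, the transcription factor required for alveolar development, was at 382, 611 and 357 CPM in LP-like cells, 8.07, 4.73 and 5.97 CPM in ML-like cells and 14.8, 8.51 and 6.44 CPM in basal-like cells. The groups did not overlap, and the log2 fold changes were 6.12 ± 0.29 against ML-like cells (adjusted p = 5.06e-08) and 5.52 ± 0.27 against basal-like cells (adjusted p = 8.04e-08). Elf5 had a count in 59.2%, 79.6% and 71.4% of LP-like cells, against at most 2.76% of ML-like and at most 2.90% of basal-like cells in any library. With every cell thinned to 2000 counts the LP-like shares were 39.7%, 62.8% and 45.8%. Kit was at 54.5, 43.9 and 35.7 CPM in LP-like cells, higher by 5.06 ± 0.34 than in ML-like cells and by 4.89 ± 0.34 than in basal-like cells on the log2 scale. Itgb3, the integrin used with Kit to isolate progenitors, was low (13, 6.17 and 4.62 CPM), and its call against basal-like cells (log2 fold change 0.98, adjusted p = 0.0339) was lost in 10 of 13 alternative settings.

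The ML and basal marker lists gave the opposite pattern. Of 10 ML-defining genes 9 passed the filter, and all 9 were lower in LP-like than in ML-like cells (median log2 fold change −4.70). Foxa1 was at 1.86, 2.31 and 1.98 CPM in LP-like cells and at 49.5, 75.4 and 56.7 CPM in ML-like cells. Esr1 was at 4.79, 3.08 and 1.98 CPM against 25.5, 22.7 and 22.4 CPM. Areg, the ligand through which estrogen drives ductal growth, was at 24.5, 3.08 and 8.58 CPM in LP-like cells and at 3172, 594 and 1856 CPM in ML-like cells. Of 10 basal-defining genes, 9 were lower than in basal-like cells, with a median of −7.47. The exception was Igfbp5, an insulin-like growth factor binding protein, at 1889, 1533 and 885 CPM in LP-like cells against 852, 509 and 464 CPM in basal-like and 21.4, 15.8 and 31 CPM in ML-like cells (log2 fold change 1.25 ± 0.25 against basal-like cells, adjusted p = 0.00191, and 5.97 ± 0.32 against ML-like cells). Against ML-like cells 3 of the 10 basal genes were higher, Igfbp5, the oxytocin receptor Oxtr (4.16) and Krt14. Krt14, the basal keratin, was at 18.3, 16.2 and 61.4 CPM in LP-like cells and at 4365, 6346 and 3442 CPM in basal-like cells, and its call against ML-like cells (1.38, adjusted p = 0.0261) was lost in 5 of 14 alternatives. Krt8, a luminal keratin, was at 5377, 4022 and 2943 CPM and did not pass the test against ML-like cells (−0.06 ± 0.09, adjusted p = 0.659), while all 10 pan-luminal genes were higher than in basal-like cells. The measured markers therefore went with the label. The lists were chosen with earlier results of these data known, so they describe the class and are not an independent check.

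The genes that defined the class are described next, without a test. Cd14, the lipopolysaccharide co-receptor, had a count in 92.9%, 94.4% and 96.1% of LP-like cells, against 9.70 to 11.0% of ML-like and 2.64 to 6.75% of basal-like cells. Lalba, the milk protein α-lactalbumin, was detected in 88.9%, 84.2% and 60.4% of members. Its level before TMM scaling was 5028, 4265 and 2752 CPM, so among members Lalba was lowest at diestrus on both measures. The values of all 5 LP markers among members depend on the definition, because a member without Lalba had to carry at least 3 of the other markers. The part of the definition in their order across stages was not tested. Plb1, a phospholipase, was found in 60.8%, 66.6% and 78.8% of members, and Atp6v1b1, a subunit of the vacuolar proton pump, in 77.3%, 84.5% and 83.7%. Aldh1a3, a retinaldehyde dehydrogenase, was the least often detected of the 5, in 34.6%, 33.7% and 30.4%. Prlr, the prolactin receptor and 1 of the ML markers limited by the definition, had a count in 15.3%, 19.8% and 14.1% of members. Of the 1275, 415 and 353 cells that had at least 3 LP markers, 195, 83 and 63 had more than 1 ML marker and 28, 11 and 9 had more than 2 basal markers.

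Cells just outside the threshold resembled those just inside it in detection of Elf5 and Csn3, but not of Hey1 at diestrus. Within the limits on ML and basal markers, 567 cells at puberty had exactly 3 LP markers and 410 had 2, at estrus 152 and 85, and at diestrus 153 and 177. Elf5 had a count in 54.9%, 72.4% and 66.0% of the cells with 3 markers and in 47.3%, 65.9% and 63.8% of those with 2. Csn3 was found in 96.8%, 92.8% and 83.7% of the former and in 93.7%, 95.3% and 80.8% of the latter. Hey1, a Notch effector, was found in 24.5%, 43.4% and 35.3% against 20.2%, 51.8% and 18.6%. Depth moved with the number of markers: the median was 3758, 3033 and 4134 counts in cells with 3 markers and 3073.5, 2780 and 3577 counts in cells with 2. The 87, 34 and 10 cells with all 5 markers had medians of 5521, 5182.5 and 4750 counts, and Elf5 was found in 69.0%, 94.1% and 80.0% of them. The part of depth in these shares was not tested.

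**Figure D1:**
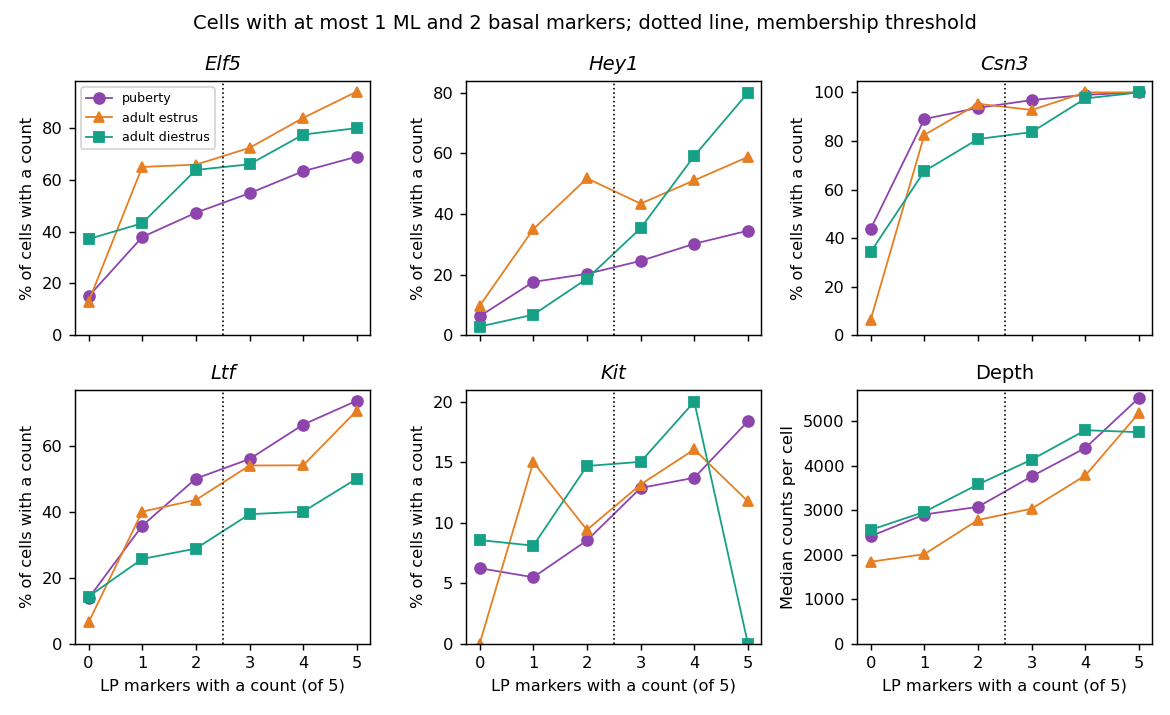
Share of cells with a count of Elf5, Hey1, Csn3, Ltf and Kit (y axis, percent), and median counts per cell, against the number of LP markers with a count (x axis), for cells within the limits on ML and basal markers. Lines are libraries and the dotted line is the membership threshold. At 3 markers Elf5 was found in 54.9%, 72.4% and 66.0% of cells, and at 2 markers in 47.3%, 65.9% and 63.8%.

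The 15 genes that stood farthest above both other classes were led by secreted proteins of milk. By rank of the smaller log2 fold change they were Csn1s2a, Lao1, Spp1, Csn1s1, Bglap3, Btn1a1, Slc28a3, Kcnn4, Wfdc18, Pkib, Ltf, Csn2, Cck, Elf5 and Foxi1. Csn1s2a, a casein of the micelle, was at 22240, 10781 and 1319 CPM in LP-like cells, 105, 14.9 and 17.6 CPM in ML-like cells and 337, 34.5 and 18.4 CPM in basal-like cells. The lowest LP-like library was above every library of both other classes, with log2 fold changes of 7.98 ± 0.59 (adjusted p = 1.27e-06) against ML-like and 6.87 ± 0.55 (adjusted p = 2.27e-06) against basal-like cells. Lao1 was at 366, 181 and 15.2 CPM in LP-like cells, 2.24, 0.236 and 0 CPM in ML-like cells and 7.96, 0 and 0 CPM in basal-like cells. Spp1, the secreted phosphoprotein osteopontin, was the most abundant of the 15 at 46333, 26490 and 21605 CPM, against 256, 134 and 81.7 CPM in ML-like cells and 1304, 241 and 159 CPM in basal-like cells. Its log2 fold changes were 7.76 ± 0.39 and 6.29 ± 0.36.

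The rest of the 15 had other roles. Btn1a1, the butyrophilin of the milk fat globule membrane, was at 361, 507 and 191 CPM and higher by 7.17 ± 0.33 and 5.91 ± 0.30. Cck, the peptide hormone cholecystokinin, was at 694, 850 and 314 CPM (log2 fold changes 7.0 and 5.55). Kcnn4, a calcium-activated potassium channel, varied least across libraries among the 15, at 203, 198 and 178 CPM (6.29 and 5.83). Slc28a3, a nucleoside transporter, was at 877, 355 and 250 CPM (7.56 and 5.87), and Foxi1, a forkhead factor known from acid-secreting cells of other organs, at 128, 71.7 and 42.3 CPM (6.79 and 5.51). Pkib, an inhibitor of protein kinase A, was highest at estrus (57.4, 162 and 50.2 CPM, 8.05 and 5.78). The 15 genes kept their calls in 420 of 420 alternative values (14 settings and both comparisons).

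**Figure D2:**
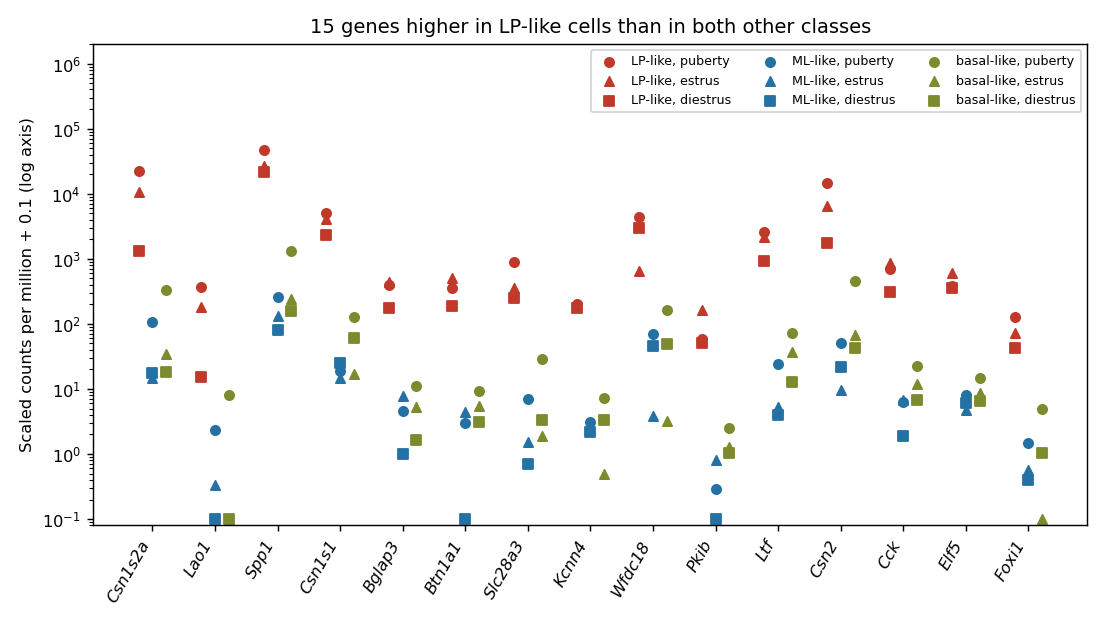
Scaled CPM plus 0.1 (log y axis) of the 15 genes farthest above both other classes. Points are the summed cells of a class in a library (red LP-like, blue ML-like, green basal-like, circles puberty, triangles estrus, squares diestrus). Csn1s2a spans 1319 to 22240 CPM in LP-like cells and at most 337 CPM elsewhere, and Kcnn4 spans 178 to 203 CPM in LP-like cells.

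Milk and secretory genes formed the list with the largest median increase against each class. Of 19 genes, 16 passed the filter and all 16 were higher than in ML-like cells (median log2 fold change 6.88), while 15 were higher than in basal-like cells (median 5.41). The background of genes higher than both was 9.28%, and 15 of these 16 were higher than both. Fabp3 did not pass the test against basal-like cells, and Csn1s2b, Glycam1 and Olah were below the filter. Csn2, β-casein, was at 14602, 6385 and 1772 CPM in LP-like cells, 50.4, 9.45 and 21.8 CPM in ML-like cells and 448, 66.3 and 42.8 CPM in basal-like cells. Csn3, κ-casein, was at 12393, 8319 and 3605 CPM, against 78.7, 59.8 and 24.8 CPM and 552, 102 and 72.1 CPM. Csn1s2a, Csn2 and Csn3 were each highest at puberty and lowest at diestrus in LP-like cells. Csn1s1 was at 5114, 4138 and 2331 CPM, but at 3927, 3968 and 2333 CPM before TMM scaling. Wap, whey acidic protein, had 265 counts in LP-like cells, 3 in ML-like cells and 6 in basal-like cells, a ratio of 200-fold against ML-like cells with a counting interval of 67.9 to 978. Genes of the milk fat globule moved the same way: Mfge8 was at 3718, 4595 and 2966 CPM (5.08 and 2.88), Xdh at 51.1, 70.9 and 27.7 CPM (6.60 and 3.69), and Plin2 at 797, 1303 and 660 CPM (4.01 and 3.78).

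Casein detection differed between the genes. Csn3 had a count in 97.9%, 96.6% and 90.1% of LP-like cells, whereas Csn1s2a had one in 44.7%, 42.1% and 41.3% and Csn2 in 38.8%, 33.7% and 45.6%. ML-like cells had a count of Csn3 in 12.4%, 5.75% and 6.19% and of Csn1s2a in 11.6%, 3.48% and 1.75%, and basal-like cells of Csn3 in 20.9%, 4.61% and 5.52%. Free RNA from other cells can give such counts, and the shares of Csn3 and Csn1s2a in both other classes were largest at puberty, where the LP-like levels were largest. Its part in these shares was not tested. Since Lalba was itself a criterion, the comparison was repeated, after the data were seen, with members chosen by at least 3 of the 4 other markers. This left 583, 215 and 216 cells, and Csn1s2a (7.71 and 6.62), Csn2 (7.79 and 5.45) and Csn3 (7.03 and 5.23) kept their calls.

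Innate defence genes were nearly as uniform. Of 22 listed genes 19 passed the filter. Of these, 17 were higher in LP-like than in ML-like cells (median 4.82), and 17 were higher than in basal-like cells (median 3.18). Over all genes tested, 20.4% and 20.5% were higher. Trf, the iron carrier transferrin, was at 34465, 22675 and 11755 CPM, against 246, 209 and 119 CPM in ML-like and 1194, 311 and 274 CPM in basal-like cells. It had a count in 99.9%, 100% and 100% of LP-like cells. Ltf, which withholds iron from bacteria, was at 2573, 2140 and 913 CPM (7.58 ± 0.32 and 5.71 ± 0.28). Lcn2, which binds bacterial siderophores, was at 8364, 5437 and 3678 CPM against 1516, 1083 and 1074 CPM in basal-like cells (2.20 ± 0.14) and 70.7, 51.8 and 49.2 CPM in ML-like cells (6.63 ± 0.17). The neutrophil-attracting chemokines Cxcl1 (2619, 1504 and 734 CPM) and Cxcl2 (2084, 727 and 203 CPM) were higher than in both classes. Saa1, an acute-phase protein, was at 103, 0.771 and 12.5 CPM, and its call against basal-like cells (3.08, adjusted p = 0.00606) was lost with DESeq2 and when the pubertal library was left out. Tlr2 passed narrowly against basal-like cells (0.56, adjusted p = 0.0411), a call lost in 10 of 14 alternatives.

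Slpi went the other way. This secreted inhibitor of leukocyte proteases was at 183, 30.1 and 18.5 CPM in LP-like cells, 2015, 1398 and 1258 CPM in ML-like cells and 3564, 4689 and 2186 CPM in basal-like cells. It was lower by 4.58 ± 0.50 (adjusted p = 2.65e-05) and 5.75 ± 0.52 (adjusted p = 6.09e-06) on the log2 scale. Irf1 was lower than in basal-like cells (−1.25, adjusted p = 0.00424).

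Among 33 transcription factors in the data, all of which passed the filter, 22 were higher and 6 lower than in ML-like cells. Against basal-like cells 20 were higher and 6 lower. The shares over all genes tested were 20.4% and 18.3% against ML-like cells and 20.5% and 22.2% against basal-like cells. Hey1 was at 144, 318 and 224 CPM in LP-like cells, 1.75, 4.02 and 1.49 CPM in ML-like cells and 8.4, 12.3 and 7.57 CPM in basal-like cells (6.51 ± 0.21 and 4.57 ± 0.18). Ehf, an epithelial ETS factor related to Elf5, was at 169, 197 and 180 CPM (3.88 and 4.94). Creb3l1, a membrane-bound factor of the secretory pathway, was higher by 3.42 and 4.38, and Xbp1, a factor of the unfolded protein response, by 1.09 and 2.15. Sox10, a neural crest and myoepithelial factor, was at 75, 54.7 and 50.8 CPM and stood 5.67 above ML-like and 1.56 above basal-like cells. Tfap2c, an AP-2 factor, was at 64.3, 86.4 and 86.5 CPM, 3.35 above ML-like cells but 0.93 below basal-like cells. Bcl11a had 106 counts in LP-like, 2 in ML-like and 85 in basal-like cells. Stat5a, which carries the prolactin signal, did not pass the test against ML-like cells (−0.41, adjusted p = 0.209) and was 0.86 above basal-like cells (adjusted p = 0.0182), a call lost in 6 of 14 alternatives.

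Members of the Notch pathway differed in direction. Notch receptors are activated by ligands on neighbouring cells, and Hes and Hey factors are their targets. Of 13 genes 9 passed the filter (Notch2, Hey2, Heyl and Mfng did not). Of these, 5 were higher and 2 lower than in ML-like cells, and 5 were higher and 4 lower than in basal-like cells. Among all genes tested the shares were 20.4% and 18.3% against ML-like cells and 20.5% and 22.2% against basal-like cells. Notch1 was at 55.8, 51.7 and 29.7 CPM (1.73, adjusted p = 0.000172, and 2.48, adjusted p = 1.49e-05). Nrarp, a target that damps the pathway, was at 43.6, 23.9 and 42.9 CPM (2.47 and 1.80). Hes1 was at 635, 610 and 463 CPM and 1.48 above basal-like cells, with a call against ML-like cells (0.43, adjusted p = 0.029) that was lost in 8 of 14 alternatives. Notch3 was above basal-like cells (2.39) but did not pass against ML-like cells (−0.50, adjusted p = 0.122). Of the ligands, Dll1 was at 2.66, 2.31 and 3.96 CPM against 114, 162 and 64.4 CPM in basal-like cells (−5.21), and it was higher than in ML-like cells at 0.195, 0.236 and 0.895 CPM (3.04, adjusted p = 0.00503), a call lost without the pubertal library. Jag1 had 2 counts in LP-like cells, 15-fold lower than in ML-like cells (counting interval 3.99 to 126) and 21.7-fold lower than in basal-like cells (5.80 to 182). Jag2 had 0 counts in LP-like cells and 83 in basal-like cells, at least 15.2-fold lower by a floor of 3 counts over the 3 libraries.

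Surface antigens and growth factor receptors did not move as a group. Of 13 surface antigens tested (Itga2 and Thy1 were below the filter), 5 were higher and 3 lower than in ML-like cells, and 4 were higher and 3 lower than in basal-like cells. Cd55, a complement regulator, was at 71.3, 70.9 and 56.8 CPM (2.27 and 4.36). Cd44, the hyaluronan receptor, was 3.23 above ML-like cells. Cd24a, on which the cells were sorted, passed neither test (−0.51, adjusted p = 0.159, and 0.57, adjusted p = 0.11). Of 21 receptors tested, 10 were higher and 6 lower than in ML-like cells, whereas 4 were higher and 11 lower than in basal-like cells. For both lists, the shares higher and lower over all genes tested were 20.4% and 18.3% against ML-like cells. Against basal-like cells they were 20.5% and 22.2%. Met, the receptor of hepatocyte growth factor, was at 25, 31.6 and 13.9 CPM and higher than in both (2.97 and 1.71). Egfr was above ML-like (4.22) and below basal-like cells (−0.94), and its call against basal-like cells was lost in 5 of 14 alternatives. Tnfrsf11a, the receptor RANK, was at 7.71, 15.4 and 11.2 CPM and 4.29 above ML-like cells, with −0.10 against basal-like cells. Tnfrsf11b, the decoy receptor for the RANK ligand, had 0 counts in LP-like and 398 in basal-like cells, at least 72.8-fold lower. Fgfr2, the receptor of fibroblast growth factors, was at 7.45, 4.63 and 2.64 CPM against 118, 145 and 93.1 CPM in ML-like cells (−4.44).

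Aldh1a3 and Atp6v1b1 belonged to the definition, so their relatives were examined. Of 29 retinoid and aldehyde genes 20 passed the filter. Of these, 5 were higher and 5 lower than in ML-like cells (median −0.08) and 2 higher and 9 lower than in basal-like cells (median −0.28). Over all genes tested, 20.4% were higher and 18.3% lower than in ML-like cells, and 20.5% and 22.2% than in basal-like cells. Crabp2, which carries retinoic acid to the nucleus, was at 242, 274 and 192 CPM and higher than in both (5.22 and 2.94). Aldh1a7 had 0 counts in LP-like cells, 60 in ML-like and 55 in basal-like cells, at least 8.81-fold and 10.1-fold lower. Of 21 proton pump genes 17 passed the filter. Against ML-like cells 3 were higher and 6 lower (median 0.06), and against basal-like cells 12 were higher (median 0.78). The calls of Atp6v1b2, Atp6v0d1, Atp6v0b and Atp6v1d against ML-like cells were lost in 11, 7, 6 and 5 of 14 alternatives. Against basal-like cells Atp6ap1 lost its call in 10 of 14, and several others, such as Atp6v1a and Atp6v1h, did not pass a test against 2-fold. Atp6v1c2, a subunit found in few tissues, was at 38.3, 37.8 and 75.9 CPM, 0.195, 0.236 and 1.49 CPM in ML-like cells and 16.8, 11.1 and 8.52 CPM in basal-like cells (6.63 ± 0.54 and 1.99 ± 0.35).

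**Figure D3:**
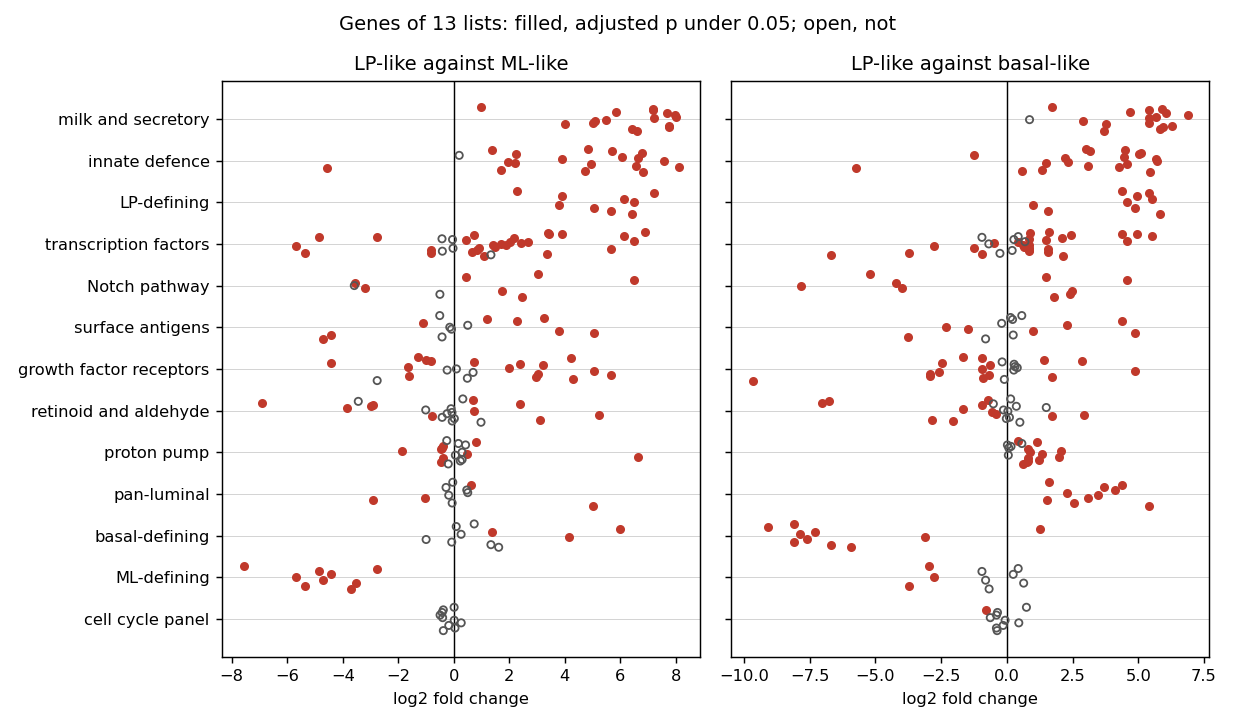
Log2 fold change (x axis) of each tested gene of 13 lists (rows) in LP-like cells against ML-like cells (left) and basal-like cells (right). Filled points passed the edgeR quasi-likelihood test at an adjusted p under 0.05 and open points did not. All 16 tested milk genes lie to the right in the left panel, and Slpi is the innate defence gene at −4.58 and −5.75.

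Genes lower in LP-like cells than in both other classes included several signalling molecules. Pthlh, parathyroid hormone-like hormone, had 0 counts in LP-like cells, 55 in ML-like and 959 in basal-like cells, at least 8.08-fold and 175-fold lower, and its call against ML-like cells was lost in 6 of 14 alternatives. Fst, the activin antagonist follistatin, was at 1.33, 0 and 0.66 CPM, against 185, 31.9 and 25.9 CPM in ML-like and 497, 216 and 426 CPM in basal-like cells. Wnt5a, a Wnt ligand that acts largely without β-catenin, was at 0.532, 0 and 1.32 CPM against 124, 79.4 and 48.9 CPM in ML-like cells (−7.23 and −5.24). Dcn, the matrix proteoglycan decorin, was at 5.85, 0.771 and 1.32 CPM, against 360, 209 and 761 CPM in ML-like and 254, 257 and 232 CPM in basal-like cells. Cav1, the coat protein of caveolae, was at 1.86, 5.4 and 1.98 CPM against 98.9, 182 and 56.4 CPM and 173, 205 and 117 CPM. Emb, Bdnf, Col8a1 and R3hdml were also among the 10, the last pair with 1 count each in LP-like cells.

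Some genes set LP-like cells apart from 1 class while lying close to the other. Pdlim3, an actin-associated PDZ-LIM protein, was at 172, 225 and 238 CPM in LP-like and 187, 415 and 290 CPM in basal-like cells but at 2.14, 0.945 and 4.47 CPM in ML-like cells (6.39, and −0.44 against basal-like cells, adjusted p = 0.119). Ldhb, a lactate dehydrogenase subunit, was at 407, 328 and 343 CPM (5.27 above ML-like cells, and −0.06 against basal-like cells, adjusted p = 0.868). Mgll, Nr4a2, Nedd9, Dusp14, Fads1 and Cdc42ep3 followed, at 4.69 to 5.80 above ML-like cells and within 1 of basal-like cells, and of these Mgll (0.59), Nr4a2 (−0.85) and Fads1 (0.88) passed the test against basal-like cells, each in part of the alternatives only. In the other direction, Ocln was 4.66 above basal-like cells, Cldn3 (1344, 1638 and 1407 CPM) 4.37 and Cldn7 (789, 625 and 650 CPM) 4.12. These tight junction genes differed by 0.47 to 0.61 from ML-like cells, of which Cldn3 passed the test (0.61, adjusted p = 0.032), a call lost in 7 of 14 alternatives. The other 5 were Dkkl1, Lgals3, Smim22, Mansc1 and Smagp, at 3.85 to 4.28 above basal-like cells.

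Within the class, milk genes, chemokines and immediate early genes were prominent among the genes with the highest residual variance from cell to cell. The 15 genes with the highest mean rank of residual variance (beyond what depth gives) over the 3 libraries, among 4840 genes detected in at least 5% of members, were Spp1, Cst3, Fos, Csn1s2a, Csn2, Ltf, Csn1s1, Csn3, Lalba, Trf, Cxcl2, Cxcl1, Hp, Jun and Ier2. The residuals allowed every gene the same spread beyond counting error (theta of 100), so abundant genes could rank higher. Lalba was also part of the definition, which shapes its spread among members. The residual variance of Csn1s2a was 91.1, 30.4 and 20.1, against medians of 1.48, 1.13 and 1.07 over genes. Csn1s2a was concentrated in few cells: the top 10% of members held 84.6%, 87.6% and 77.0% of its counts, with up to 3132, 2589 and 170 counts in a cell and a median of 0. Csn2 was alike, with 84.8% at puberty and 66.3% at diestrus. Csn3 and Trf were spread more evenly, with 37.3%, 39.4% and 47.6% for Csn3 and at most 30.2% for Trf. Across cells, the depth-adjusted residuals of Csn1s2a and Csn2 had Pearson correlations of 0.905, 0.906 and 0.499. Those of the immediate early genes Fos and Jun had 0.776, 0.768 and 0.668. Those of Cxcl1 and Cxcl2 had 0.648, 0.490 and 0.342. These correlations are descriptions over 1055, 323 and 283 cells that share a library and a range of depth.

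**Figure D4:**
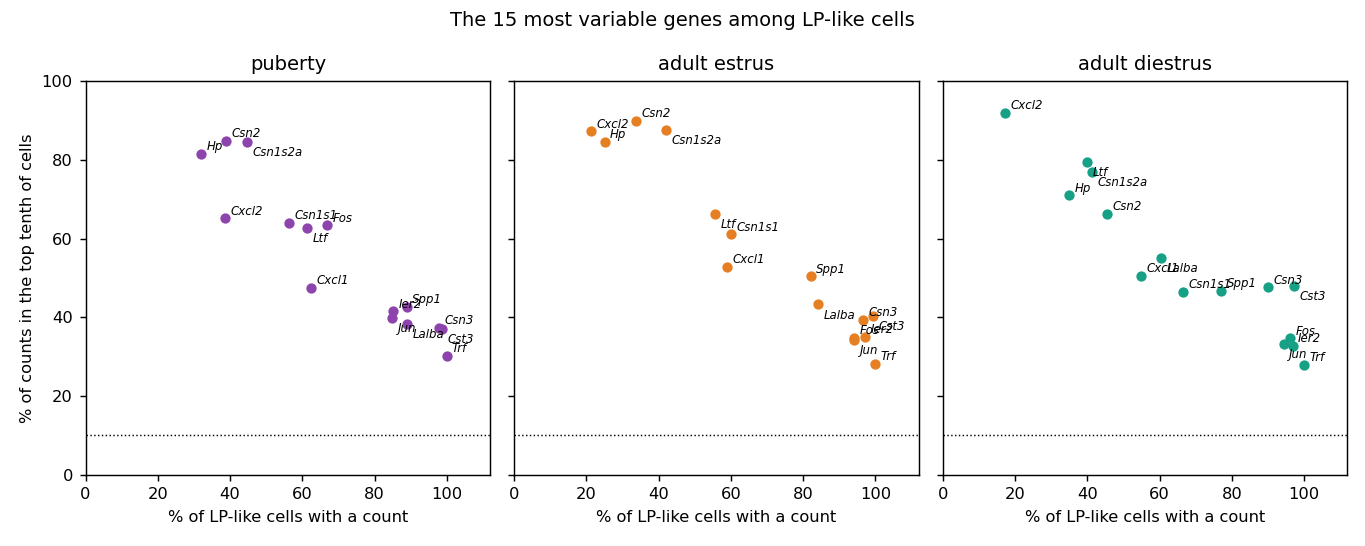
Share of counts held by the top 10% of LP-like cells (y axis, percent) against the share of LP-like cells with a count (x axis, percent) for the 15 most variable genes, by library. The dotted line at 10 is an even spread. Csn1s2a and Csn2 lie at the upper left (at least 77.0% and 66.3%) and Trf at the lower right (at most 30.2%).

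Cycling cells were a small share of the class. After thinning to 2000 counts, cells with at least 3 of 10 cell cycle genes made up 36 of 990 LP-like cells at puberty (3.64%, exact interval 2.56 to 5.00%), 5 of 288 at estrus (1.74%, 0.566 to 4.0%) and 19 of 264 at diestrus (7.20%, 4.39 to 11.0%). Thinning left out 65, 35 and 19 shallower members, and the shares without thinning were 5.40%, 3.72% and 13.1%. The thinned shares in the other classes were 4.46%, 5.35% and 5.08% for ML-like cells and 5.84%, 2.87% and 11.7% for basal-like cells. With 1 library per stage the order of stages has no test. In the comparison of classes, the median log2 fold change of the 10 cell cycle genes was −0.28 against ML-like and −0.37 against basal-like cells, and Ccnb1 was lower than in basal-like cells, a call lost in 5 of 13 alternatives.

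Transcripts of other cell types were scarce in members. The 5 immune genes had 2, 0 and 1 counts in all LP-like cells of a library, the 5 fibroblast genes 31, 5 and 1, the 5 erythroid genes 3, 19 and 3, and the 5 endothelial genes 28, 12 and 21, with Cdh5, Kdr and Emcn at 0. Pecam1, which encodes the CD31 antigen of the sort, held 23, 11 and 19 of the endothelial counts and was higher in LP-like cells than in both other classes (2.33 and 2.08). The stress genes that rise when tissue is dissociated were not scarce. Their summed level before TMM scaling was 10037, 29216 and 17125 CPM in LP-like cells, 8328, 22540 and 14998 CPM in ML-like cells and 6217, 25244 and 13175 CPM in basal-like cells, highest at estrus in each class. Of 10 such genes, 7 were higher in LP-like than in basal-like cells and 3 than in ML-like cells, beside 20.5% and 20.4% of all genes tested. The part of dissociation in these values was not tested.

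Between stages, levels are given as CPM with TMM scaling among the 3 LP-like sums, and a difference is counted at 2-fold or more (pseudocount 1 CPM) among genes at 50 CPM or more. From estrus to diestrus 213 of 2625 genes (8.11%) were higher and 89 (3.39%) lower. Of the 213, 127 (59.6%) were also at least 2-fold higher in both ML-like and basal-like cells, and of the 89, 12 (13.5%) were also lower in both. Against both adult libraries, 71 of 2785 genes (2.55%) were higher and 11 (0.395%) lower at puberty, a split that became 33 and 43 with library totals without TMM factors. Stage, animals and library cannot be told apart in these values.

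The milk list was mixed between estrus and diestrus. Of 12 milk genes at 50 CPM or more in an adult library, 5 were lower at diestrus than at estrus (Csn1s2a, Csn2, Csn3, Xdh and Btn1a1) and 1 was higher, with a median ratio of 0.55 beside 1.01 over all genes. Csn1s2a went from 9670 CPM at estrus to 1214 CPM at diestrus, 7.96-fold lower. The ratio of diestrus to estrus was 1.15 in ML-like and 0.58 in basal-like cells. The share of members with a count of Csn1s2a was 42.1% at estrus and 41.3% at diestrus, and that of Csn2 was 33.7% and 45.6%. At estrus the top 10% of members held 87.6% of the Csn1s2a counts, so these sums rest largely on few cells. Lao1 went from 162 to 14.0 CPM, 10.9-fold lower. Csn2 went from 5727 to 1630 CPM and Csn3 from 7461 to 3316 CPM. At puberty Csn1s2a was at 19857 CPM, Csn2 at 13037 CPM and Wap at 57.5 CPM (9.68 at estrus and 5.47 at diestrus). These 3 were at least 2-fold higher than in both adult libraries. Before TMM scaling, Csn1s2a (17076 CPM at puberty, 10339 at estrus) and Csn2 (11211 and 6123 CPM) were less than 2-fold above estrus. The ratio of puberty to estrus for Csn1s2a was 2.05 in LP-like, 6.69 in ML-like and 9.78 in basal-like cells. Wfdc18, a secreted protein of the whey acidic protein family, was the exception, at 3982, 586 and 2719 CPM. It was 4.64-fold higher at diestrus than at estrus, with ratios of 9.82 in ML-like and 12.7 in basal-like cells. Lalba, itself a milk gene, was 1 of the 5 LP markers. At puberty, estrus and diestrus, 583 of 1055, 215 of 323 and 216 of 283 members had at least 3 of the other 4 markers. Stage levels were not repeated with those members, so the part of Lalba in them was not tested.

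Other genes that differed by stage had other roles. Rspo1, a secreted amplifier of Wnt signalling, was at 1.66 CPM at puberty, 0.69 CPM at estrus (1 count, exact Poisson interval up to 3.85 CPM) and 125 CPM at diestrus (206 counts, 109 to 143 CPM). At diestrus it was at 2.79 CPM in ML-like and 3.50 CPM in basal-like cells. Cebpb, a factor of luminal cell fate and the acute-phase response, was at 33.7, 52.6 and 250 CPM, with ratios of 4.68 in LP-like, 2.66 in ML-like and 5.81 in basal-like cells. Of 14 innate defence genes at 50 CPM in an adult library, Ltf, Cxcl2 and Steap4 were lower and C3 higher at diestrus. At puberty Hp, Saa1, Saa2, Slpi and Cxcl2 were higher than in both adult libraries. Saa1 was at 91.9 CPM against 0.69 and 11.5 CPM, where 0.69 CPM was 1 count. Few members carried these counts: Saa1 was found in 39 cells at puberty (3.70%), 1 at estrus and 8 at diestrus (2.83%). Saa2 was found in 22 (2.09%), 0 and 8 (2.83%). Saa1 and Saa2 are near-identical copies, so reads may be split between them. Slpi was at 164, 27.0 and 17.0 CPM, and Dmkn, a secreted epidermal protein, at 181, 26.3 and 17.0 CPM. Hist1h2ap, a replication-dependent histone with near-identical copies, was at 62.7, 2.77 and 2.43 CPM.

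Several of the largest stage ratios were as large in the other classes. Rps27rt, a copy of a ribosomal protein gene, was 11.2-fold higher at diestrus than at estrus in LP-like cells, with ratios of 16.3 in ML-like and 16.7 in basal-like cells. Wdr89, a WD repeat protein, was 10.0-fold higher, with 9.25 and 11.8. The predicted gene Gm10116 went from 399 to 17.0 CPM, with ratios of 0.08 and 0.05 in ML-like and basal-like cells. Pgk1, a glycolytic enzyme, was 7.38-fold lower, with ratios of 0.11 and 0.14. Gm10263, Rps26-ps1, Gm10020 and Gm10076 were also among the 5 largest in their comparisons. Predicted genes and copies can share reads with near-identical genes, so their values are uncertain. Genes lower at puberty than in both adult libraries included Tppp3 (12.1, 60.9 and 43.1 CPM) and the junctional adhesion molecule F11r (25.6, 74.7 and 69.2 CPM), with Ackr3, Tmed7 and G0s2.

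**Figure D5:**
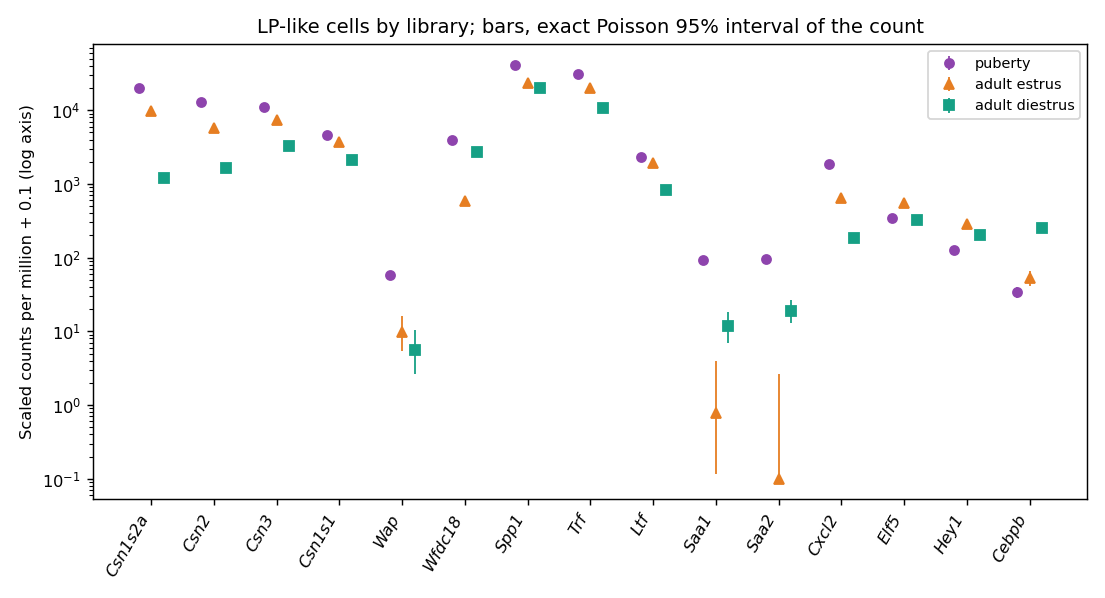
Scaled CPM plus 0.1 (log y axis) of 15 genes in LP-like cells of each library, with exact Poisson intervals of the count as bars. The bars do not cover the spread between cells. Csn1s2a spans 1214 CPM at diestrus to 19857 CPM at puberty, whereas Wfdc18 is lowest at estrus (586 CPM) and Cebpb highest at diestrus (250 CPM).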

How the data were processed

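The deposited gene tables hold raw counts of molecular tags per gene and cell, which the authors made with Cell Ranger 2.0 on mm10, per the submitters' processing notes. All barcodes in the deposited tables were kept. The 5 LP, 6 ML and 7 basal markers set the classes, and no doublet caller was run. The limits on ML and basal markers kept out some mixed cells but not all: 283, 108 and 76 members had 1 ML marker, and basal-like cells had no limit on luminal markers. Members and gene lists were chosen with earlier results of these data known. Counts were summed per class and library and fitted with edgeR 4.0.16 in R 4.3.3 (quasi-likelihood test, library plus class, TMM factors, filterByExpr by class, 4 residual degrees of freedom, adjusted p threshold 0.05). Since each library is a different stage, p-values measure the spread of class differences among 3 libraries that differ in stage, and nothing in the sources used here says which animals each pubertal table came from. LP-like sums held 4897995, 1352551 and 1513819 counts at puberty, estrus and diestrus, which limits precision most in the adults. A gene with 0 counts was set at a floor of 3 counts over the libraries.

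Named genes were the listed genes, the 15 farthest above and 10 farthest below both classes, 8 close to each class, 5 for each direction between stages and the 15 most variable, with at least 50 CPM where levels were compared. Cebpd was not analysed here. Some genes that met the naming rule are not reported here. On simulated counts for 10956 genes the fit recovered 75 of 98 genes changed 2-fold and 94 of 96 changed 4-fold between LP-like and ML-like cells, with 7 false calls, and 67 of 98 and 92 of 96 between LP-like and basal-like cells, with 12 false calls. The simulation changed few genes, only in LP-like cells and alike in all libraries. It gave every gene the same dispersion, so its rates need not hold for these data. Alternatives were DESeq2 1.42.0, no filter, no library block, a test against 2-fold, thinned cells, other marker thresholds, no cycling cells, the second pubertal table and leaving out each library. Library totals without TMM factors and membership without Lalba were added after seeing the data. Intervals cover counting error only.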

Additional observations from a re-analysis of the deposited data

Results flagged for a closer look

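Top2a, a topoisomerase of dividing cells, differed in opposite directions from ML-like cells at the adult stages. In LP-like cells it was at 26.1, 5.4 and 61.4 CPM at puberty, estrus and diestrus, and in ML-like cells at 30.6, 30.3 and 26.8 CPM. The log2 ratio was −2.29 at estrus and 1.16 at diestrus, a gap of 3.45, and −0.23 at puberty. With 1 library per stage the difference was not tested.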

How the results depend on the processing

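No pairing between stages was possible, with 1 library per stage. Classes were compared within each library, with the library as a block. The counts of genes that differed between classes depended on the setting, but no named gene reversed: of 4394 alternative values 4025 kept the call and 369 no longer passed. A test against 2-fold instead of 0 gave 960 genes higher and 616 lower than ML-like cells, 808 higher and 1129 lower than basal-like cells, 387 higher than both and 210 lower than both. Without the library block, 1267 genes were lower than ML-like cells, 664 higher than both and 449 lower than both. With cells thinned to 2000 counts 514 genes were lower than both, and with library totals without TMM factors, added after seeing the data, 1285 were. Leaving out each library in turn gave 1518 to 1868 genes higher than ML-like cells and 452 to 607 lower than both, with the lowest of each without the pubertal library. The other ranges were 1471 to 1720 genes lower than ML-like cells, 1730 to 1825 higher and 1805 to 2136 lower than basal-like cells, and 719 to 820 higher than both.

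Between stages, a minimum of 10 CPM gave 519 genes higher and 318 lower at diestrus than at estrus, and 162 higher and 77 lower at puberty. Library totals without TMM factors gave 33 higher and 43 lower at puberty, and a pseudocount of 5 CPM gave 7 lower. The LP-like share of cells at puberty, estrus and diestrus was 27.0%, 15% and 18.9% with at least 2 markers, 8.99%, 6.27% and 5.33% with at least 4, 14.1%, 7.73% and 8.12% with no ML and at most 1 basal marker, and 14.0%, 9.87% and 7.31% with thinned cells. The second pubertal table gave 16.5%. The share was highest at puberty in each of these settings, and the order of the adult stages changed. The cycling share without thinning was 5.40% at puberty and 13.1% at diestrus, and it was 4.0% at diestrus with at least 4 markers. Depth limits the adult libraries most, where LP-like sums held 1352551 and 1513819 counts.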
